A study of Mus musculus and Bos taurus with 6 samples.

Results

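Cattle chromosome 25 carried 437 SOX9-bound regions in fetal testis. These are all the peaks that the deposited bovine list places on that chromosome, out of 11988 peaks in the bovine list and 18407 in the cattle and mouse lists together. The members were selected on their chromosome, and the chromosome was chosen by its high number of peaks per Mb in this same list, so its density and the crowding that goes with it are given as a description and without a test. Chromatin came from fetal gonads of Holstein cattle at day 90, from 2 libraries immunoprecipitated with a rabbit antibody against SOX9 and 1 input library of DNA that was not immunoprecipitated. Fetuses were produced by artificial insemination within the breed, no altered genotype or treatment is named, and whether the libraries came from separate fetuses or pools is not stated. Tissue powder was fixed with disuccinimidyl glutarate and then with formaldehyde. All 3 bovine libraries are represented by 1 list, so no value below has a replicate error, and the read depth behind the list is unknown.

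SOX9 is an HMG-box transcription factor of the SOX family. In the fetal testis it drives the supporting cells to become Sertoli cells, which enclose the germ cells in cords and organise the rest of the gonad. It binds DNA at short motifs, many of them in enhancers away from gene starts, and several bound elements often lie around the same target gene. Double cross-linking also retains SOX9 held on chromatin by a partner protein, so a peak marks occupancy and not necessarily a site of direct contact. Gonad powder contains all cell types of the organ, and the list carries no marker from which the cell type could be checked. Genes and DNA sequence at these positions were not analysed here, and regions are therefore identified by their UMD3.1 coordinates, counted from 1.

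The peaks of chromosome 25 ran from 112204 to 42758422, a span of 42.6 Mb, the shortest of the 29 bovine autosomes. They amounted to 10.2 peaks per Mb (95% Poisson interval 9.31 to 11.3). Chromosome 19 was denser, at 12.4 peaks per Mb, and the other 28 autosomes had a median of 4.64, with the lowest value of 2.54 on chromosome 20. With 1.72% of the summed autosomal span, chromosome 25 held 3.70% of autosomal peaks. Peak sequence covered 537 kb, or 1.26% of the span, against a median of 0.585% on the other autosomes and 1.51% on chromosome 19. Intervals here and below cover counting error only, and since neighbouring peaks are not independent they are narrower than they should be.

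Crowded stretches alternated with stretches of few peaks along the chromosome. Of the 43 windows of 1 Mb between the first and the last peak, 9 held at least 20 peaks, which was 20.9% of the windows. Over all autosomes 2.75% of windows were this full, and the highest share elsewhere was 16.7% on chromosome 19. Those 9 windows contained 265 of the 437 peaks, or 60.6%, compared with 37.6% in windows of the same kind on chromosome 19 and a median of 6.72% over the other autosomes. The median window of chromosome 25 held 6 peaks, below the 10.5 of chromosome 19 and the 7 of chromosome 18 and above the median of 3 over the other autosomes. The variance of the number of peaks per window was 12.8 times its mean, above the other 28 autosomes, where it ran from 2.28 to 10.1 times. The number of full windows rises with density by construction. The fullest 10% of windows held 33.9% of the peaks, which ranked 10 among the 29 autosomes, with a median of 31.8% over the others, and ranked 18 with the window boundaries shifted by 500 kb.

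**Figure D1:**
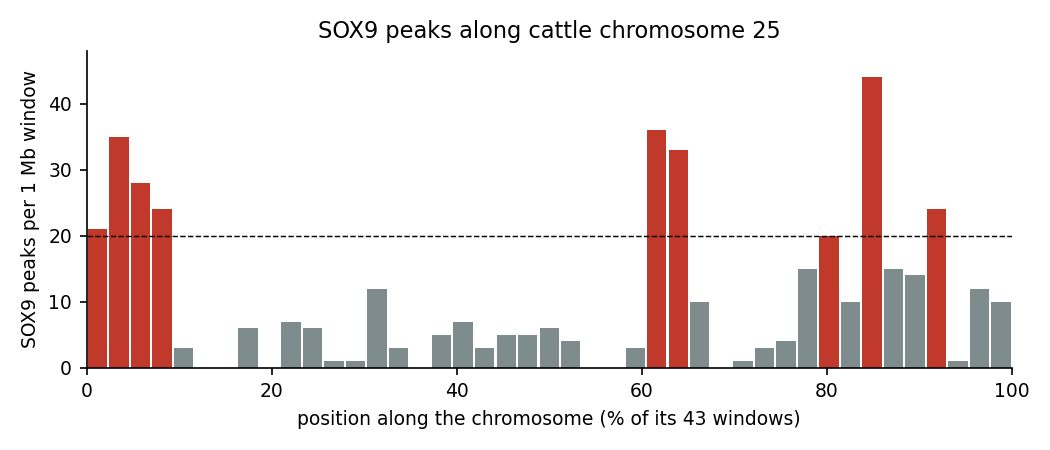
Number of SOX9 peaks (y axis) in each of the 43 windows of 1 Mb of cattle chromosome 25, in order along the chromosome (x axis, percent of its windows). Red bars are the 9 windows with at least 20 peaks, and the dashed line marks 20. Full windows lie at the start, past the middle and toward the end, with 7 empty windows between them.

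The first crowded stretch opened the chromosome. Its 4 windows from 1 to 4000000 held 21, 35, 28 and 24 peaks, 108 in all or 24.7% of the chromosome's peaks. The share of peaks with another peak within 10 kb was 47.6%, 60%, 50% and 50% in these windows. Beyond them occupancy fell off at once, to 3 peaks in the window from 4000001 to 5000000. The longest stretch without a peak followed, 3.43 Mb from 4130315 to 7562947.

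The middle of the chromosome was sparse. From 4000001 to 26000000 a single window, from 13000001 to 14000000, held at least 10 peaks, with 12. The next longest stretches without a peak also lay there, 2.49 Mb from 22649283 to 25138666 and 1.89 Mb from 14647191 to 16537000. Windows without any peak were those starting at 5000001, 6000001, 8000001, 15000001, 23000001, 24000001 and 29000001. These 7 made up 16.3% of the windows of chromosome 25, and 19% of windows on all autosomes were empty. On the other densely occupied autosomes the empty share was lower, at 3.33% on chromosome 19, 9.62% on chromosome 23 and 10.8% on chromosome 18. Whether sequence gaps or repeats in the assembly lie in the empty stretches was not analysed here.

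The second crowded stretch, from 26000001 to 29000000, held 79 peaks, with 36, 33 and 10 in its windows. In the windows of 36 and 33 peaks, 61.1% and 66.7% of peaks had another within 10 kb. The stretch after it, from 33000001 to 40000000, held 142 peaks or 32.5% of the chromosome's total. It contained 3 windows above the limit of 20 or at it: 20 peaks from 34000001 to 35000000, 44 from 36000001 to 37000000 and 24 from 39000001 to 40000000. A last stretch from 41000001 to 43000000 held 22 peaks. The 17 windows with at least 10 peaks thus carried 83.1% of the peaks, at 21.4 peaks per window. The other 26 windows carried a mean of 2.85 peaks. On chromosome 19 windows with at least 10 peaks carried 80.6% of the peaks, the highest share elsewhere. The limit of 10 peaks was chosen after the values were seen.

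The window from 36000001 to 37000000 was the fullest of all 2510 autosomal windows. Its 44 peaks lay between 36024871 and 36977170, and 35 of them (79.5%) had another within 10 kb. The median gap between them was 8.999 kb. Their median width of 1159 bp was close to that of the whole chromosome, and the range ran from 549 to 2607 bp. By contrast, the window of 20 peaks from 34000001 to 35000000 was loosely filled, with only 3 peaks (15.0%) that had a close neighbour. Among the 9 full windows of chromosome 25 the share of peaks with a neighbour had a median of 50%. The 60 full windows on 16 other autosomes had a median of 47.6% and ranged from 8.33% to 74.1%.

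The share of peaks with a close neighbour was the highest of the 29 bovine autosomes. Of the 437 peaks, 209 (47.8%, exact 95% interval 43.1 to 52.6) had another peak within 10 kb, edge to edge, where 30.5% of all autosomal peaks did. Chromosome 19, with the higher density, stood at 43.5% (39.9 to 47.2), and its interval overlaps that of chromosome 25. Chromosome 23 stood at 38.0% (33.0 to 43.2) and chromosome 18 at 37.1% (33.3 to 41.1). The lowest share was 20.9%, on chromosome 20. Because peaks that are denser are also closer, the share was set against density. A line through the other 28 autosomes put a chromosome of this density at 39.0%, and chromosome 25 lay 8.82 percentage points above it. The residual SD of the other autosomes was 3.22 points, and the largest positive residual among them was 5.84 points. Across those 28 autosomes, which share the same libraries and peak calling, Pearson's r between density and the share was 0.77 and Spearman's rho 0.59. Few autosomes are as dense as chromosome 25, and without chromosome 19 the line gave 38.6%.

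**Figure D2:**
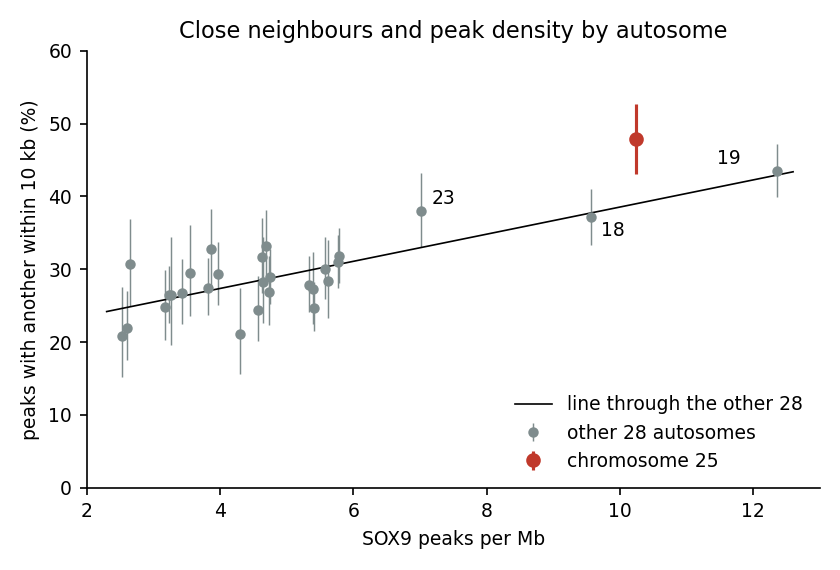
Share of SOX9 peaks with another peak within 10 kb (y axis, percent) against peaks per Mb (x axis) for the 29 bovine autosomes. Bars are exact 95% binomial intervals and the line is fitted to the 28 grey points. Chromosome 25 (red, 47.8%) lies above the line, while chromosomes 18 and 19 lie close to it.

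When windows with a like number of peaks were compared, the difference was smaller. In windows of 31 to 44 peaks, 67.6% of 148 peaks on chromosome 25 (59.4 to 75.02) and 56.8% of 206 peaks elsewhere (49.7 to 63.7) had a close neighbour, and the intervals overlap. The 148 peaks lay in 4 windows and the 206 in 6, and windows within a class were not matched further for number of peaks. Without the window of 44 peaks the value on chromosome 25 was 62.5% of 104 peaks (52.5 to 71.8). In windows of 21 to 30 peaks the shares were 49.5% (39.2 to 59.8) and 47.0% (44.1 to 49.9). Windows of 11 to 15 peaks gave 36.8% (25.4 to 49.3) and 32.1% (29.9 to 34.3). Windows of 6 to 10 peaks gave 32.3% (20.9 to 45.3) and 27.4% (25.9 to 28.9). For windows of 1 to 5 peaks the shares were 30.95% (17.6 to 47.1) and 20.6% (19.2 to 22.0). In windows of 16 to 20 peaks, where chromosome 25 has 1 window, the order was the opposite, 15.0% (3.21 to 37.9) against 39.6% (36.9 to 42.5). The classes of the other autosomes were then weighted by the number of chromosome 25 peaks in each class. This gave the other autosomes 42.3%, against the 47.8% of chromosome 25. Without the window of 44 peaks the values were 40.7% and 44.3%. The unweighted share of the other autosomes was 29.9%.

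**Figure D3:**
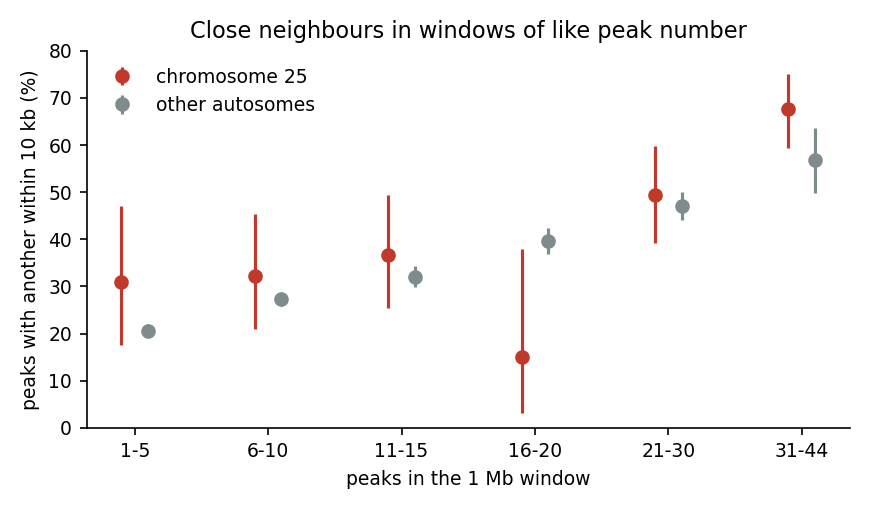
Share of SOX9 peaks with another within 10 kb (y axis, percent, exact 95% binomial intervals) by the number of peaks in the 1 Mb window (x axis), for chromosome 25 (red) and the other 28 autosomes (grey). The intervals overlap in every class, and chromosome 25 is lower in the class of 16 to 20 peaks, which rests on 1 of its windows.

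Clusters were defined as runs of peaks with gaps of at most 10 kb. Chromosome 25 had 84 clusters of at least 2 peaks, made up of 59 pairs, 15 triplets, 6 clusters of 4 peaks, 2 of 5 and 2 of 6. The remaining 228 peaks stood alone. Clusters of at least 3 contained 20.8% of its peaks, against 7.89% of all autosomal peaks and 17.5% on chromosome 19. Weighted in the same way, by the number of chromosome 25 peaks in each class of peaks per window, the other autosomes stood at 15.2%. Clusters of at least 4 contained 10.5%, against 2.12% of all autosomal peaks, and the highest share elsewhere was 4.80%, on chromosome 7. The 10 clusters of at least 4 peaks were 17.5% of the 57 on all autosomes. Chromosome 19 had 8 of these clusters, chromosome 7 had 7 and chromosome 10 had 5, while chromosome 18 had 2 and chromosome 23 had 1.

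All 10 large clusters lay in windows with at least 20 peaks, and 4 of them in the window from 36000001 to 37000000. Both clusters of 6 peaks were in the crowded stretch that starts at 33000001 and differed in build. The cluster from 36469280 to 36508504 extended over 39.2 kb, of which 16.2% lay within peaks. That from 39422495 to 39433165 was compact, with 6 peaks in 10.7 kb and 64.8% of its length within peaks. Its gaps measured 235, 2055, 237, 303 and 927 bp, so that 3 of the 5 were under 500 bp. The clusters of 5 peaks were at 2304730 to 2340464, in 35.7 kb, and at 26970187 to 26996775, in 26.6 kb. Those of 4 peaks were at 1349089 to 1371009, 27744348 to 27766225, 36628176 to 36650825, 36770931 to 36792070, 36885183 to 36906058 and 39319269 to 39332869, and measured 13.6 to 22.7 kb. The widest peak of the chromosome was the last member of the cluster at 36628176.

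Short gaps on chromosome 25 were frequent at 2 to 10 kb and ordinary below that. Gaps from 2 to 10 kb made up 89 of its 436 gaps, or 20.4% (16.7 to 24.5), against 7.65% on the other autosomes pooled (7.17 to 8.16). The highest share on another autosome was 14.1% (11.7 to 16.8), on chromosome 19, followed among the dense autosomes by 13.3% on chromosome 23 and 11.3% on chromosome 18. Gaps under 2 kb numbered 36, or 8.26% (5.85 to 11.2), with a median of 9.06% over the other autosomes and 11.1% on chromosome 19. Within windows of at least 20 peaks, 28.1% of the gaps of chromosome 25 (22.7 to 34.1) and 18.1% of those elsewhere (16.1 to 20.2) measured 2 to 10 kb. Without the window of 44 peaks the value on chromosome 25 was 25.4% (19.7 to 31.7). In the emptier windows the shares were 11.7% (6.98 to 18.1) and 7.61% (7.04 to 8.21). Neither comparison was matched for the number of peaks per window. Windows of at least 20 peaks had a median of 28 peaks on chromosome 25 and 24 elsewhere, and fuller windows have shorter gaps by construction. These classes of gap size were formed after the values were seen.

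**Figure D4:**
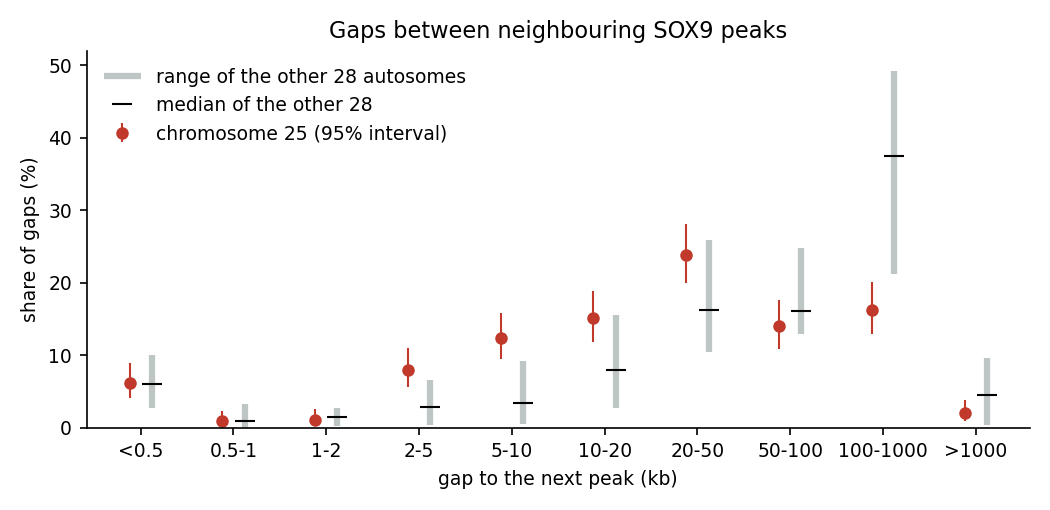
Share of gaps between neighbouring SOX9 peaks (y axis, percent) by gap length (x axis, kb). Red points are chromosome 25 with exact 95% binomial intervals, grey bars the range and black ticks the median of the other 28 autosomes. Chromosome 25 lies above the whole range at 2 to 5 kb (8.03%) and 5 to 10 kb (12.4%), inside it below 2 kb, and under it at 100 to 1000 kb (16.3%).

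At the other end, gaps of 100 kb to 1 Mb were scarcer than on any other autosome, at 16.3% of gaps where the others ranged from 21.3% to 49.2%. Gaps above 1 Mb numbered 9, or 2.06% of gaps, against 4.59% on the other autosomes pooled. The other autosomes ranged from 0.411% to 9.59%, and 26 of the 28 had a higher share. The median gap of 24.9 kb was the shortest of all autosomes, with 28.1 kb on chromosome 19 and a median of 76.3 kb over the others. Peaks less than 500 bp apart, which may be parts of the same bound region, accounted for 27 gaps or 6.19%, and 12 of the other 28 autosomes had a higher share. The closest pair, 6 bp apart, began with the peak from 26056796 to 26057486.

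Taken over all peaks, widths on chromosome 25 were close to those of the other autosomes. The median was 1217 bp (1175 to 1260, 95% order-statistic interval), and the middle 50% of widths fell between 963 and 1460 bp. The other 28 autosomes pooled had a median of 1225 bp (1216 to 1234), which lies inside the interval of chromosome 25. The difference of the medians was -8 bp. The lowest autosomal median was 1154 bp (chromosome 21) and the highest 1356 bp (chromosome 6). The SD of width, 362 bp, was the smallest of the 29 autosomes, which otherwise ranged from 370 to 446 bp. In all, 11 peaks were wider than 2000 bp, or 2.52% (exact 95% interval 1.26 to 4.46), where 4.34% of all autosomal peaks were. Chromosome 12 alone had a lower share, at 1.66%, but the interval of chromosome 25 contains the share of all autosomes. The line through the other 28 autosomes gave 3.59% at its density, with a residual SD of 1.42 percentage points, so the share lay within the spread of autosomes.

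**Figure D5:**
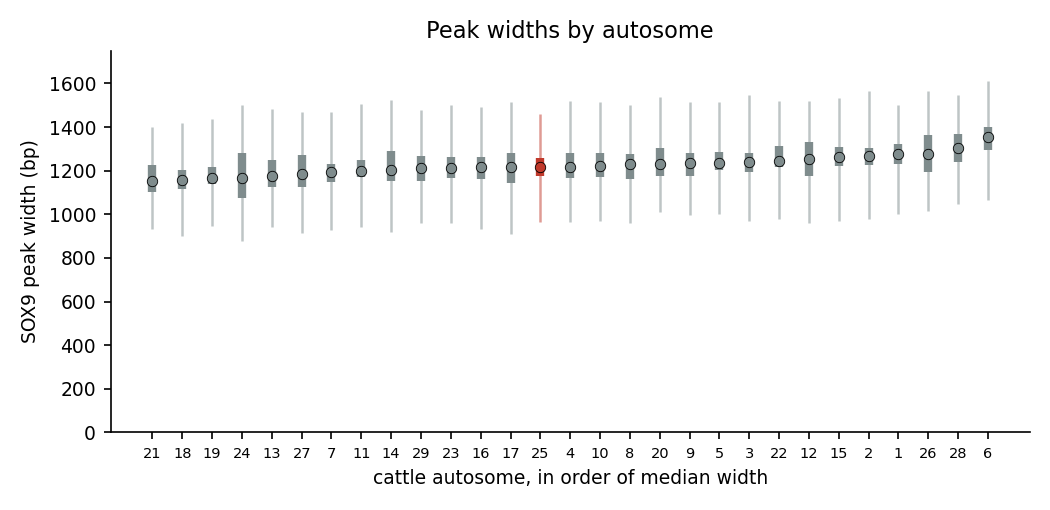
SOX9 peak width (y axis, bp) on each bovine autosome, in order of the median (x axis). Points are medians, thick bars their 95% intervals and thin lines the quartiles. Chromosome 25 (red) is near the middle with a median of 1217 bp, and its interval overlaps those of most autosomes.

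The widest peak on the chromosome extended from 36648219 to 36650825 and measured 2607 bp. Next came peaks of 2268 bp (36449697 to 36451964), 2183 bp (33372045 to 33374227) and 2177 bp (34905450 to 34907626). The remaining 6 of the 10 widest measured 2093 bp (28460994 to 28463086), 2090 bp (26684654 to 26686743), 2057 bp (26817331 to 26819387), 2051 bp (9975511 to 9977561), 2040 bp (20246253 to 20248292) and 2021 bp (27087018 to 27089038). Of these 10, 8 lay in the stretches from 26000001 to 29000000 and from 33000001 to 40000000. Those stretches held 18.1% and 32.5% of the chromosome's peaks. None of the 10 lay in the crowded stretch at the start, where no window held a peak over 2000 bp. That stretch held 24.7% of the peaks, and 10 peaks are too few to show that width differed by region. Of the 10, 7 had no other peak within 10 kb. The same held for 52.2% of all peaks on chromosome 25 and for 8193 of the 11796 autosomal peaks. With so few members, the count does not set the widest peaks apart. The peak just over 2000 bp measured 2015 bp and the one just under it 1964 bp. The narrowest peaks measured 413 bp (32472460 to 32472872), 479 bp (33982869 to 33983347), 508 bp (1036810 to 1037317), 549 bp (36770931 to 36771479) and 567 bp (4129748 to 4130314). The last of these borders the longest stretch without a peak. The first peak of the chromosome measured 1375 bp and the last 1278 bp.

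The 228 solitary peaks of chromosome 25 had a median width of 1258.5 bp (1200 to 1333) and the 209 with a close neighbour 1169 bp (1080 to 1235), a difference of -89.5 bp. On the other 28 autosomes the same difference had a median of -200 bp and was most negative on chromosome 24 (-339 bp). In 4 of them it was smaller in size than here. These were the densely occupied chromosomes 18 (-38 bp, the least negative), 19 (-68.5 bp) and 23 (-86.5 bp), and chromosome 29 (-75 bp). On the other autosomes pooled, close peaks had a median of 1093.5 bp (1079 to 1114). Chromosome 25 was 75.5 bp wider and ranked 2 of 29 in this median, and the intervals overlap. The pooled solitary peaks had a median of 1276 bp (1266 to 1288), from which chromosome 25 differed by -17.5 bp. Peaks less than 500 bp from the nearest other peak, on either side, had a median of 980 bp on chromosome 25 (859 to 1213) and 1006 bp elsewhere (982 to 1025). For peaks 500 bp to 10 kb from the nearest, the medians were 1197 bp (1119 to 1322) and 1171 bp (1151 to 1191). Beyond 50 kb they were 1257 bp (1137 to 1435) and 1305 bp (1289 to 1323). In each of these classes the intervals overlap. The class of 500 bp to 10 kb took 157 of the 209 close peaks of chromosome 25 and 2080 of the 3394 elsewhere.

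The densest other autosomes had narrower peaks, with medians of 1157 bp (1117 to 1203) for chromosome 18 and 1165 bp (1138 to 1215) for chromosome 19, while chromosome 23 was at 1214 bp (1167 to 1263). Across the other 28 autosomes median width fell with density, with Pearson's r of -0.50 and Spearman's rho of -0.48. The line through them gave 1167 bp at the density of chromosome 25, which lay 50.3 bp above it. The residual SD was 40.4 bp and 2 autosomes lay further above the line, so this distance was within the spread of autosomes. Without chromosome 19 the line gave 1150 bp, further below chromosome 25, and no spread was computed for that line.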

How the data were processed

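The authors deposited 1 SOX9 peak list per species, which per the labels belongs to every library of the species, the input included. A line gives chromosome, start and end, and its last value was checked to equal the peak width in bp. The lists hold no height, p-value or count, so depth is unknown. For the aligner, peak caller, threshold and handling of replicates, the sources used here state nothing. The build UMD3.1 comes from the submitters' processing notes. The mouse list was only counted. Whether peaks had been set aside before this work is not known.

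Neighbours were found edge to edge, clusters joined gaps of at most 10 kb, and windows of 1 Mb were filled by peak midpoint. Intervals are 95% Poisson, exact binomial (Clopper-Pearson) or order-statistic intervals. Chromosome 25 was set beside the other 28 autosomes by value and rank, without a significance test, since 1 list gives no replicates. In a check of the code, neighbours and clusters were recovered on all 29 simulated chromosomes. Their gaps were drawn by the same limit of 10 kb, so the check says nothing about the choice of that limit. Named regions were the 10 widest and 5 narrowest peaks, windows of at least 20 peaks or none, clusters of at least 4, the 3 longest gaps and the first and last peak. The members and lists were chosen with earlier results of these data known. Python 3.11.15, pandas 2.3.3 and SciPy 1.17.1 were used.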

Additional observations from a re-analysis of the deposited data

How the results depend on the processing

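Of 32 alternative values for chromosome 25, 17 stayed within the 95% interval of the reported value or, for counts, within 1.5 times it. The difference in median width has no interval of its own, and a band as wide as that of the chromosome 25 median was used. For the fullest 10% of windows the interval was a binomial one for peaks, which ignores that windows were picked as the fullest. The share of peaks with a neighbour was the highest of the 29 autosomes under every alternative tried except a distance of 2 kb, where it was 15.3% and 20th. It was 29.3% at 5 kb, 65.2% at 20 kb and 86.0% at 50 kb, as the distances require. It was 40.5% after peaks under 500 bp apart were merged and 22.2% among the widest 50% of bovine peaks. That selection left 216 peaks, or 5.06 per Mb. Merging gave a median width of 1272.5 bp and 5.85% of peaks over 2000 bp, which ranked 19 and 26 of 29 since merging widens peaks on the other autosomes too, and the shares over 1500 and 2500 bp were 22.0% and 0.229%. The difference in median width changed sign, to 41 bp, against chromosomes 18, 19 and 23 only. The fullest 10% of windows held 33.9% of peaks, 39.6% with windows of 500 kb and 29.3% with 2 Mb. Without its fullest window, and with the other autosomes left whole, the chromosome ranked 3 by density and not 2. Its density was then 9.44 peaks per Mb, just below the 9.57 of chromosome 18. No paired analysis was possible because 1 list stands for all bovine libraries, and no replicate could be left out. The planned look at sequence and genes was not run, for want of a UMD3.1 reference here.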

Other observations

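The cluster of 6 peaks from 36469280 to 36508504 on chromosome 25 (UMD3.1) was evenly spaced. It became 5 regions once its last pair, 198 bp apart, was merged. Midpoints of these regions followed each other at 9.10 to 9.72 kb, with a coefficient of variation of 2.84%. This was the lowest among 31 autosomal clusters of at least 4 merged regions. The next value was 12.8%, on chromosome 2 (20808474 to 20833178, 4 regions), and the next 2 were on chromosome 25 again, at 18.5% for 2304730 to 2340464 and 22.3% for 26970187 to 26996775. The median was 42.2% over the 25 clusters on other autosomes and 29.9% over the 6 on chromosome 25. The limit of 10 kb caps the spacing within a cluster and so narrows its variation for widely spaced members. This measure was formed after the spacing of the cluster had been seen, and whether these regions share sequence with each other was not analysed here, so neither is it known whether their 6 peaks, counted in the fullest window, are independent.

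At a finer scale, 12 of 427 windows of 100 kb on chromosome 25 held at least 6 peaks (2.81%), against 65 of 24451 on the other autosomes (0.266%). The fullest, with 8 peaks each, began at 2300001 and 36400001, and the fullest elsewhere held 9. Windows of 100 kb without a peak made up 57.6% of chromosome 25 and 71.7% of the other autosomes. Full and empty windows of this size follow density, by which the chromosome was chosen. The other autosomes were pooled here, without separate values for the dense ones. The limit of 6 peaks was not planned.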
